A study of Mus musculus with 40 samples.

Results

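The secretory and ciliated cells that line the airways were followed through 9 of their genes: Scgb1a1, Scgb3a1, Scgb3a2, Bpifa1, Muc5b, Foxj1, Tekt1, Tppp3 and Ltf. They were taken as a list of names, out of 18194 genes that the arrays could name, and each was read from its only probe set. The mice were untreated C57BL/6 males. Whole lung and kidney were taken at 3 ages (1, 4 and 8 weeks) and whole heart at the younger 2, which makes 8 groups, each of 5 arrays. The labels describe growth as rapid at 1 week, slow at 4 weeks and very slow at 8 weeks. The design text gives 5 animals at each age for kidney and lung. The animal numbers given with the arrays match between organs for some arrays of an age and not for others. The labels do not say how much of the large airways was taken with the lung.

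The conducting airways carry club cells, which secrete secretoglobins and metabolise foreign compounds, goblet cells, which make mucus, and ciliated cells, whose beating cilia move the mucus out. Foxj1 is the transcription factor that switches on the genes of motile cilia. Bpifa1 and lactoferrin (Ltf) are secreted into the airway lining as part of mucosal defence, and lactoferrin is also a granule protein of neutrophils. In the mouse these epithelial cells go on maturing after birth.

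Signals are the deposited array intensities, in which each array was scaled to the same trimmed mean of 500. A change is the difference of mean log2(signal + 16) between 2 ages, given with its standard error (SE). A change was called at a limma adjusted p under 0.05, over all genes whose highest group mean in the tissue reached 117.9. All 9 genes passed that filter in lung. The array labelled lung 1 week replicate 4 and the array labelled heart 1 week replicate 5 went against their labels and were left out, so 38 of 40 arrays were used. On the first, Scgb1a1 read 1109.7 and the cardiac myosin gene Myh6 read 36022.4. On the second, Scgb1a1 read 30870.2 and Myh6 read 2395.7. On the 14 lung arrays used, the alveolar type 2 gene Sftpc read 20101 to 35376.6, against 82.5 to 263.4 on the kidney arrays.

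Upstream sequences of genes that the results turn on are shown first, because Scgb3a1 and Bpifa1 varied together between lungs and Tekt1 is a structural gene of the cilium. They are the 250 bases before a RefSeq start site on GRCm38.p6, read 5' to 3' toward the gene. Capitals mark letters matching an RFX half-site (GTTGCC) or a forkhead site (TGTTTNC) on either strand. RFX and forkhead factors, Foxj1 among the latter, are the known regulators of ciliary genes.
Tekt1, chr11:72361883-72362132, minus strand: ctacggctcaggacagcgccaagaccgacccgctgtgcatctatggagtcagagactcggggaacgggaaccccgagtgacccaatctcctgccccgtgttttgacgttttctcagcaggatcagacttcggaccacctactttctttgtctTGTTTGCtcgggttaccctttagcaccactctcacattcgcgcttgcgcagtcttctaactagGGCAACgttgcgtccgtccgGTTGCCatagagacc
Scgb3a1, chr11:49663345-49663594, plus strand: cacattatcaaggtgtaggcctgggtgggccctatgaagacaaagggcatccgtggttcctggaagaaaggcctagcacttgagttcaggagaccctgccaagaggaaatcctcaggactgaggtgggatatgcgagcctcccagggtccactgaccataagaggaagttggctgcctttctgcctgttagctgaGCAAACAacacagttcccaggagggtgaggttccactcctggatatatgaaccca
Bpifa1, chr2:154142630-154142879, plus strand: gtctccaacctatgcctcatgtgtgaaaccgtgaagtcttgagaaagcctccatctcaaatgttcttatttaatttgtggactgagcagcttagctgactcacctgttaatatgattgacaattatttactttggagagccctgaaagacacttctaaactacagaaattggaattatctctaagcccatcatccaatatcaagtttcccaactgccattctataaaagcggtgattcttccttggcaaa
The Tekt1 window held 2 RFX half-sites, at -35 to -30 on the opposite strand and -15 to -10 on the gene's strand, counted back from the start site, and a forkhead match at -98 to -92. The Scgb3a1 window held a forkhead match on the opposite strand at -55 to -49, and the Bpifa1 window held neither motif. No matches overlapped. A second Tekt1 start site in the table had neither motif. The RFX half-site occurred in 10.4% of all 32851 promoters of that length, in 29.2% of 113 promoters of axoneme genes and in 0 of 24 promoters of club cell genes. The forkhead site occurred in 17.8%, 28.3% and 25% of the same sets. These are letter matches and say nothing of binding.

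Between 1 and 4 weeks, 6 of the 9 genes rose in lung and 0 fell, against 19.9% of all 13814 genes tested called higher and 19.7% called lower. The genes that rose were Bpifa1, Foxj1, Scgb3a1, Muc5b, Tekt1 and Tppp3. Scgb1a1, Scgb3a2 and Ltf were not called. The median change of the 9 was 0.84 (log2), against -0.01 over all genes tested. Whole-lung RNA cannot tell more airway cells from more transcript in each. With the 2 left-out arrays kept as labelled, 5 rose, all but Scgb3a1.

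**Figure D1:**
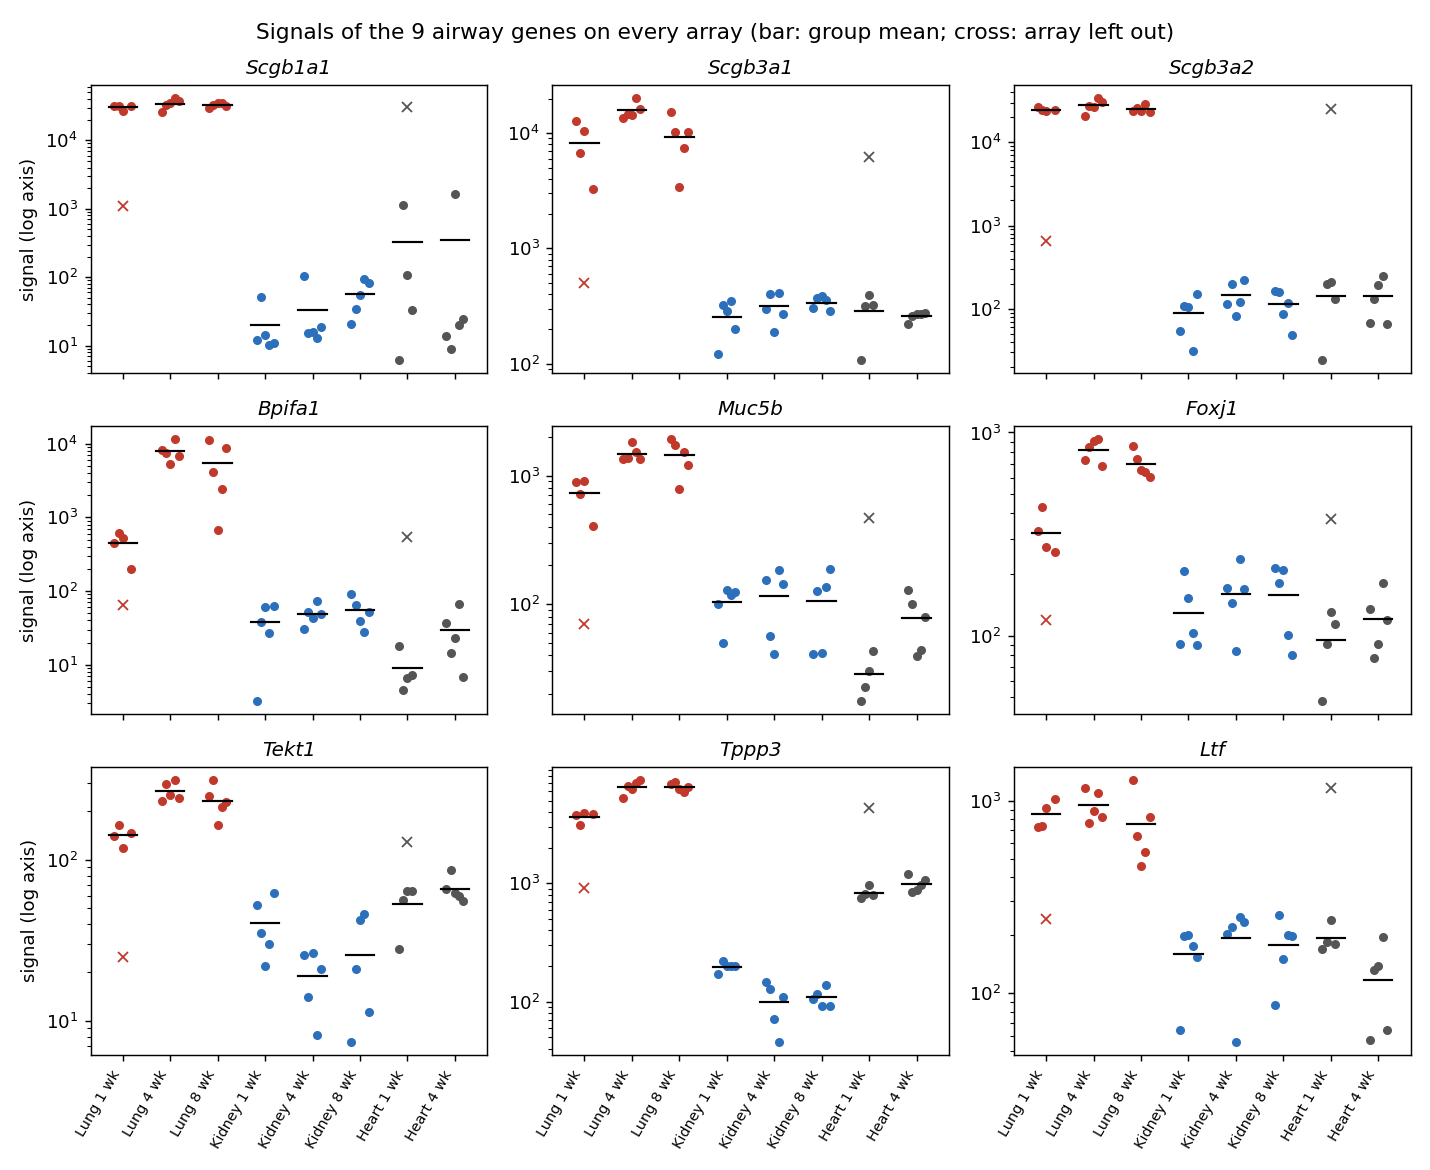
Signal of each of the 9 genes on every array, on a log axis with arbitrary intensity units, by organ and age in weeks. Points are arrays, bars are group means and crosses are the 2 arrays left out; in Bpifa1 the 4 lungs of 1 week lie between 196.3 and 610.1 and the 5 of 4 weeks between 5232.3 and 11662.8.

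Scgb1a1 encodes the main secretory protein of club cells. Its signals were 31802.2, 31869.3, 26608.1 and 32054.4 at 1 week. At 4 weeks they were 25855.8, 32698.5, 34806.7, 41466.2 and 37253.9. At 8 weeks they were 30047.4, 33144.7, 34895.3, 35677.4 and 31985.6. The ages overlapped. The change from 1 to 4 weeks was 0.16 (SE 0.12, limma adjusted p = 0.317), and from 1 to 8 weeks 0.12 (SE 0.12, limma adjusted p = 0.451). The highest signal of any probe set in the series was 69706.7, so these values lay in the upper part of the scale.

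Scgb3a2, a secretoglobin of the same cells, read 26520.0, 24462.0, 23549.9 and 24174.5 at 1 week. It read 20486.1, 27285.1, 26716.4, 33946.1 and 30203.9 at 4 weeks, and between 23171.7 and 28847.2 at 8 weeks. Its change from 1 to 4 weeks was 0.15 (SE 0.12, limma adjusted p = 0.355). The lung of 4 weeks replicate 1 was the lowest of its age for both secretoglobins. Without that array the change was 0.26 for Scgb1a1 (limma adjusted p = 0.0457) and 0.25 for Scgb3a2 (limma adjusted p = 0.0487), which passes the threshold.

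Scgb3a1, the secretoglobin of larger airways, read 12776.9, 6745.2, 10355.6 and 3270.0 at 1 week. At 4 weeks it read 13621.8, 14572.5, 14439.5, 20183.6 and 16106.9, all above the 1 week lungs. At 8 weeks it read 15293.3, 10279.6, 3398.0, 7496.3 and 10165.0, which overlaps the ranges of both earlier ages. The rise from 1 to 4 weeks was 1.09 (SE 0.41, 2.12-fold, limma adjusted p = 0.0474). It kept its call in 9 of 24 alternative settings, whose adjusted p ran from 0.0167 to 0.166. Without lung 1 week replicate 5 the change was 0.70 (limma adjusted p = 0.166), and with all arrays as labelled it was 1.85 (limma adjusted p = 0.0559). From 1 to 8 weeks the change was 0.18 (SE 0.41, limma adjusted p = 0.747).

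Bpifa1, a secreted protein of the upper airway epithelium with antimicrobial and surface-active properties, had the largest change of the 9. Its signals were 450.8, 610.1, 518.9 and 196.3 at 1 week. They were 8152.7, 7407.5, 5232.3, 11662.8 and 6916.0 at 4 weeks, with no overlap. The rise was 4.16 (SE 0.64, 17.9-fold, limma adjusted p = 0.000128), and 4.64 with all arrays as labelled. At 8 weeks the lungs read 11155.1, 4136.1, 681.3, 2405.1 and 8859.3. The 8 week lungs thus differed 16.4-fold among themselves, and the lowest lay just above the highest lung of 1 week. The rise from 1 to 8 weeks was 3.12 (SE 0.64, 8.67-fold, limma adjusted p = 0.00116).

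Muc5b, the gel-forming mucin that secretory cells make in healthy airways, read 887.9, 718.9, 907.2 and 407.4 at 1 week. It read 1335.3, 1361.2, 1828.7, 1536.6 and 1355.4 at 4 weeks and 1929.9, 1742.6, 782.5, 1533.1 and 1213.0 at 8 weeks. The 4 week lungs were all above the 1 week lungs, and 1 lung of 8 weeks fell within the 1 week range. The rise was 1.06 from 1 to 4 weeks (SE 0.26, 2.09-fold, limma adjusted p = 0.00472) and 0.96 from 1 to 8 weeks (SE 0.26, 1.95-fold, limma adjusted p = 0.00782). As labelled, these rises were 1.67 and 1.57.

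Foxj1 read 325.9, 430.6, 272.0 and 259.0 at 1 week. It read 735.9, 844.2, 903.8, 930.3 and 682.0 at 4 weeks and 854.6, 737.7, 654.5, 641.5 and 604.0 at 8 weeks. Every later lung was above every 1 week lung. The rise was 1.32 from 1 to 4 weeks (SE 0.15, limma adjusted p = 7.45e-06) and 1.10 from 1 to 8 weeks (SE 0.15, 2.14-fold, limma adjusted p = 3.39e-05).

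Tekt1 encodes a tektin, a filament protein inside the doublet microtubules of cilia. It read 140.3, 165.2, 118.4 and 146.0 at 1 week, close to the 117.9 needed for a test. It read 230.9, 294.3, 254.6, 315.2 and 243.5 at 4 weeks, all above the 1 week lungs, and 248.8, 312.6, 163.7, 213.2 and 227.7 at 8 weeks, where 1 lung fell within the 1 week range. The rise was 0.84 from 1 to 4 weeks (SE 0.15, 1.79-fold, limma adjusted p = 0.000483) and 0.63 from 1 to 8 weeks (SE 0.15, 1.55-fold, limma adjusted p = 0.00342).

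Tppp3, a tubulin-binding protein abundant in ciliated cells and present in other cells too, read 3772.1, 3097.8, 3900.3 and 3880.1 at 1 week. It read 5220.7, 6624.6, 6282.1, 7101.1 and 7514.4 at 4 weeks and 6848.7, 7194.0, 6214.9, 5966.9 and 6508.3 at 8 weeks. No later lung overlapped with the 1 week lungs. The rise was 0.83 from 1 to 4 weeks (SE 0.11, 1.78-fold, limma adjusted p = 2.95e-05) and 0.84 from 1 to 8 weeks (SE 0.11, 1.79-fold, limma adjusted p = 2.29e-05). With all arrays as labelled, the rises from 1 to 4 weeks were 1.58 for Foxj1, 1.23 for Tekt1 and 1.23 for Tppp3.

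Ltf read 731.1, 742.5, 912.5 and 1021.4 at 1 week. It read 1165.8, 766.4, 881.6, 1097.4 and 820.0 at 4 weeks and 1287.0, 657.0, 456.5, 539.3 and 821.2 at 8 weeks, and the ages overlapped. The change was 0.14 from 1 to 4 weeks (SE 0.24, limma adjusted p = 0.674) and -0.26 from 1 to 8 weeks (SE 0.24, limma adjusted p = 0.423). Over all genes tested, limma called 19.9% higher and 19.7% lower from 1 to 4 weeks. Of 17 tested neutrophil genes, a list that includes Ltf, 3 rose and 3 fell over that interval (median -0.04). Those that fell include Ngp, a neutrophil granule gene, from 707 ± 62.7 to 263 ± 33.3 (SD), and Camp, the cathelicidin gene, from 41.2 to 183.5 on the 1 week arrays to 8 to 18.7 on the 4 week arrays. Chil3, which macrophages also make, rose from 1456 ± 406 to 16537 ± 1491. Mpo read 121.3 to 187.8 and Elane 31.9 to 64.8 on the 14 lung arrays. The brighter neutrophil gene S100a8 read 3430.2 to 4059.8 at 1 week, 1014.4 to 4849.5 at 4 weeks and 1388 to 4142.8 at 8 weeks. S100a9 read 2096.8 to 2660, 718.3 to 3045.9 and 834.8 to 2907.2 at the same ages. In both genes the ages overlapped. The summed neutrophil level, as a mean log2 signal, was 8.04 to 8.23 at 1 week, 7.79 to 8.28 at 4 weeks and 7.74 to 8.07 at 8 weeks, and its part in the Ltf values was not tested.

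**Figure D2:**
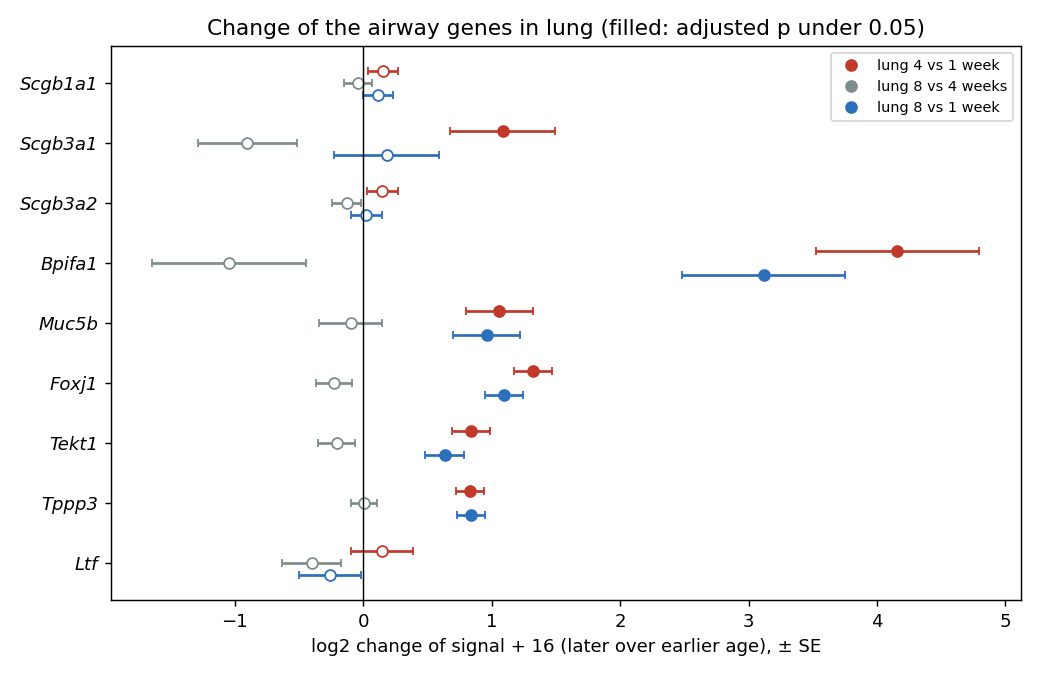
Change of each of the 9 genes between ages in lung, on the horizontal axis as log2 of signal + 16, with standard errors as bars. Filled points had a limma adjusted p under 0.05; from 1 to 4 weeks they run from 0.83 in Tppp3 to 4.16 in Bpifa1, and between 4 and 8 weeks there are 0.

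From 4 to 8 weeks, 0 of the 9 genes were called in lung, against 0.898% of all genes called higher and 1.13% called lower by limma. At an unadjusted p under 0.05 limma gave 2309 of the 13814 genes. Bpifa1 differed by -1.04 (SE 0.60, limma adjusted p = 0.408) and Scgb3a1 by -0.90 (SE 0.38, limma adjusted p = 0.262), the largest sizes among the 9. Ltf differed by -0.40 (SE 0.23), Foxj1 by -0.23 (SE 0.14) and Tekt1 by -0.21 (SE 0.14). The others lay between -0.13 and 0.01. From 1 to 8 weeks 5 of the 9 were called higher and 0 lower, against 22.0% and 21.9% of all genes tested, and the 5 were those of the first interval without Scgb3a1.

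Other genes of the same cells were counted from lists that share some of the 9. Of 29 club cell genes tested, 24 rose and 2 fell between 1 and 4 weeks (median 1.06), and without the 5 shared genes 21 of 24 rose. Over all genes tested in lung, 19.9% were called higher and 19.7% lower. Cyp2b10, a cytochrome P450 of drug metabolism, rose from 269 ± 29.5 to 4543 ± 375 (SD, n = 4 and 5; change 4.00, SE 0.09, limma adjusted p = 1.87e-12). Cyp2f2, the P450 that marks club cells, rose from 11499 ± 742 to 23211 ± 4161. Fmo2, a flavin monooxygenase, rose from 1840 ± 213 to 14259 ± 2064, and Gsta3, a glutathione transferase, from 246 ± 39.9 to 1891 ± 442. Upk3a, a uroplakin of a club cell subset, fell from 191 ± 37.5 to 86.7 ± 54.5, and Itm2a fell from 6738 ± 969 to 2371 ± 209. Fmo2 and Gsta3 also rose in the other organs from 1 to 4 weeks, Fmo2 by 1.29 in kidney and 1.37 in heart, and Gsta3 by 1.85 in kidney and 3.21 in heart. Itm2a also fell in both organs, at -2.40 in kidney and -1.39 in heart. Of the club cell genes bright enough for a test, 8 of 21 rose and 2 fell in kidney, and 6 of 15 rose and 1 fell in heart. The same counts over all genes tested were 2363 of 13781 and 3457 in kidney, and 1492 of 12977 and 1877 in heart. The lung change minus the kidney change was called above 0 for 10 of 29 club cell genes and below 0 for 2. Over all 14955 genes tested it was called above 0 for 2434 and below 0 for 1492. Cyp2b10 was called at 3.70, and Cyp2f2 was not called at 1.04. From 4 to 8 weeks Fmo2 fell by 0.62 and Itm2a by 0.48 on the log2 scale, and 0 of the club cell genes rose. Of all genes tested, 0.898% were called higher over that interval and 1.13% lower, so nothing is read from the 0.

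Of 14 goblet cell and mucus genes tested, 5 rose and 2 fell (median 0.49), where 19.9% of all genes tested were called higher. Without Muc5b, 4 of 13 rose. Bpifb1, a relative of Bpifa1, rose from 344.2 to 922.2 on the 1 week arrays to 3105.6 to 4356.7 on the 4 week arrays, and Agr3, a chaperone of secretory and ciliated cells, from 60.1 ± 33.2 to 166 ± 23.5. The airway mucin Muc5ac was not tested and read 34.4 to 66.6 on the 14 arrays. Without lung 8 week replicate 3, 8 goblet genes rose. Of 22 antimicrobial and mucosal defence genes, 12 rose and 1 fell, and without the 4 shared genes 9 of 18 rose. Pigr, which carries antibodies across the epithelium, rose from 289 ± 96.3 to 873 ± 60.8, and Slpi, a secreted protease inhibitor, from 663 ± 68.5 to 1055 ± 161. Over the same interval Pigr also rose in kidney, by 2.74 (SE 0.16, limma adjusted p = 1.93e-09), and Slpi was not called there.

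Of 105 tested genes of the motile cilium axoneme, 79 rose and 2 fell from 1 to 4 weeks (median 0.76), and without Tekt1 and Tppp3 77 of 103 rose. Over all genes tested in lung, 19.9% were called higher and 19.7% lower. Spag6l, a central apparatus protein, rose from 39.6 ± 34.6 to 235 ± 41.8, and Zmynd10, a dynein assembly factor, from 58.7 ± 37.1 to 307 ± 46.9, both from means under the 117.9 limit. Hydin, of the central pair, rose from 173 ± 89.5 to 373 ± 73.7, and the outer arm dynein Dnah5 from 149 ± 19.8 to 262 ± 38.7. Dnaaf2 and the tubulin gene Tuba1a, which many cell types express, fell by 0.41 and 0.30 on the log2 scale. At 8 weeks 73 of the 105 were higher than at 1 week and 2 lower, against 22.0% and 21.9% of all genes tested. Between 4 and 8 weeks limma called 0 of the 105. It called 0.898% of all genes higher and 1.13% lower there, so nothing is read from that 0. From 1 to 4 weeks 15 of 54 tested axoneme genes rose and 5 fell in kidney, and 1 of 40 rose and 4 fell in heart. Over all genes tested, 2363 of 13781 rose and 3457 fell in kidney, and 1492 of 12977 rose and 1877 fell in heart. Zmynd10 was among the axoneme genes that rose in kidney, by 1.63 (SE 0.21), while Hydin and Dnah5 were not called there.

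Among 20 tested regulators of ciliogenesis, 5 rose and 1 fell (median 0.18), and Foxj1 rose most. Without Foxj1, 4 of 19 rose (median 0.11), close to the 19.9% of all genes tested that were called higher. Myb, which acts early in multiciliated cell formation, rose from 269 ± 20.4 to 520 ± 46.7, and Bbof1, a basal body protein, from 101 ± 17.5 to 237 ± 63.4. Plk4, which starts centriole duplication in dividing cells too, fell from 696 ± 73.0 to 387 ± 24.0. Rfx2, Rfx3 and Trp73 were not called, at 0.64 (SE 0.36), -0.04 (SE 0.24) and -0.02 (SE 0.14). Leaving out lung 1 week replicate 1 or 5, or lung 4 week replicate 2 or 3, left 3 regulators that rose.

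Genes of other lung cells moved as well. Of 19 alveolar type 2 genes 13 rose and 1 fell (median 0.37), of 19 alveolar type 1 genes 16 rose and 1 fell (0.53), and of 28 general epithelial genes 11 rose and 2 fell (0.26). Smooth muscle genes fell in 9 of 15 cases and cell cycle genes in 23 of 23 (median -1.32). Of 12 airway basal cell genes 3 rose and 2 fell, where limma called 19.9% of all genes tested higher and 19.7% lower. The part of these shifts in the airway values was not tested.

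**Figure D3:**
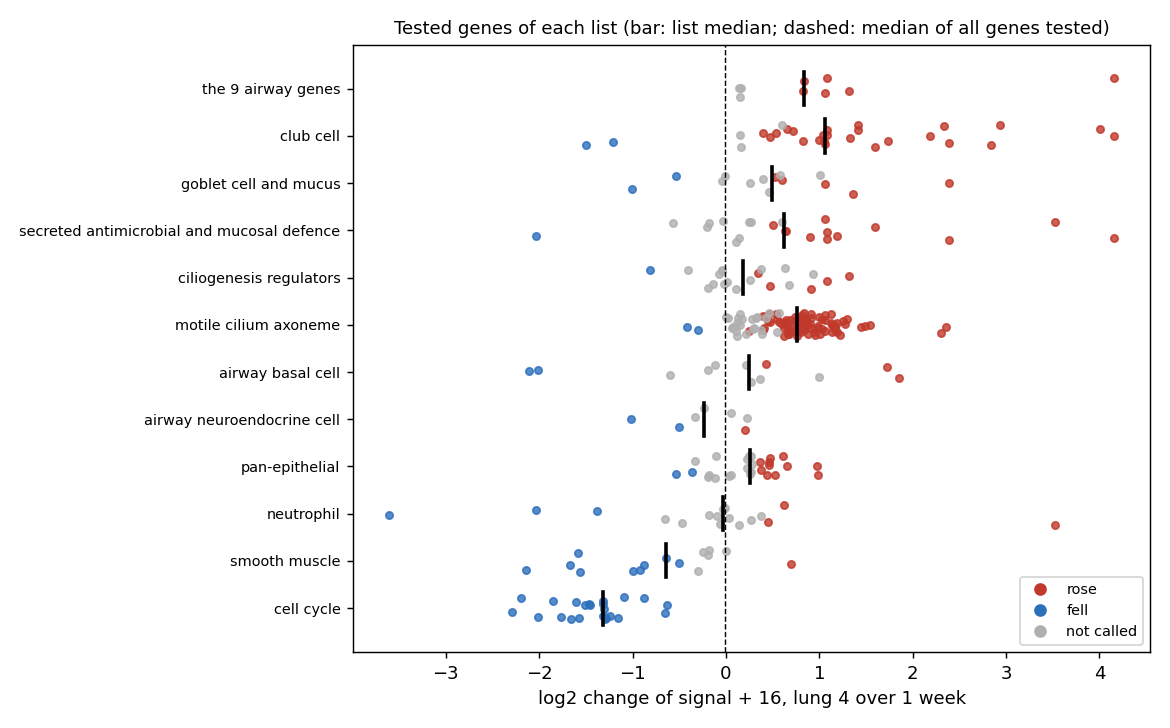
Change from 1 to 4 weeks in lung for every tested gene of 12 lists, with log2 change on the horizontal axis, red for genes that rose, blue for genes that fell and grey for genes not called. Black bars are list medians, 0.76 for the axoneme, 1.06 for club cells and -1.32 for the cell cycle, and the dashed line is the median of all genes tested.

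The 9 genes differed in how much lungs of one age varied. The pooled standard deviation of log2 signal within ages was 1.06 for Bpifa1, larger than that of 99.8% of genes tested in lung. It was 0.68 for Scgb3a1 (97.9%), 0.43 for Muc5b (92.5%) and 0.40 for Ltf (91.2%). It was 0.24 for Tekt1, 0.23 for Foxj1, 0.18 for Scgb1a1 and for Scgb3a2, and 0.16 for Tppp3, between 42.6% and 70.9%. The mucosal genes thus varied more between lungs of one age than the ciliary genes and the club secretoglobins, as a description of these arrays.

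Deviations from the age mean over the 14 lung arrays were set against each other between genes, as a description of arrays that share their RNA and scaling. Scgb3a1 and Muc5b had a Pearson correlation of 0.89, Scgb3a1 and Bpifa1 0.83, Bpifa1 and Ltf 0.69, and Bpifa1 and Muc5b 0.65. The Spearman rank correlations of the same pairs were lower, at 0.77, 0.75, 0.52 and 0.47. Scgb1a1 and Scgb3a2 had a Pearson correlation of 0.88 with each other (Spearman 0.68). Scgb1a1 had -0.15 with Scgb3a1 and -0.25 with Bpifa1, again by Pearson, as are the values that follow. Among the ciliary genes, Foxj1 and Tekt1 had 0.56, Tekt1 and Tppp3 0.28, and Foxj1 and Tppp3 -0.19, while Tekt1 and Bpifa1 had 0.55. Lung 8 week replicate 3 lay 2.41 below its age mean in Bpifa1, 1.29 below in Scgb3a1 and 0.80 below in Muc5b, and lung 1 week replicate 5 lay 1.01, 1.17 and 0.75 below. Both arrays were within 0.09 of their age mean in Scgb1a1, Scgb3a2 and Tppp3. In Ltf, Tekt1 and Foxj1 lung 8 week replicate 3 lay at -0.61, -0.44 and -0.08 from its age mean. Lung 1 week replicate 5 lay at 0.27, 0.04 and -0.27 in the same genes.

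Lung 1 week replicate 5 also stood apart in other markers. The basal cell keratin Krt5 read 563.6 there and 17.0 to 33.9 on the other lungs of that age. The summed level of 17 oesophagus, thyroid and salivary gland genes was 7.33 there, as a mean log2 signal, against 6.48 to 6.66. On lung 8 week replicate 3 the summed club cell level was 11.2 and the axoneme level 8.02, each the lowest of its age, with 11.8 and 8.36 as the highest. The club cell list holds Bpifa1, Scgb3a1 and Muc5b, so its level is partly the same values again. The general epithelial level, 9.95, was also the lowest of its age, with 10.24 as the highest. So were the goblet, defence and heart muscle levels. The part of these differences in the airway values was not tested.

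**Figure D4:**
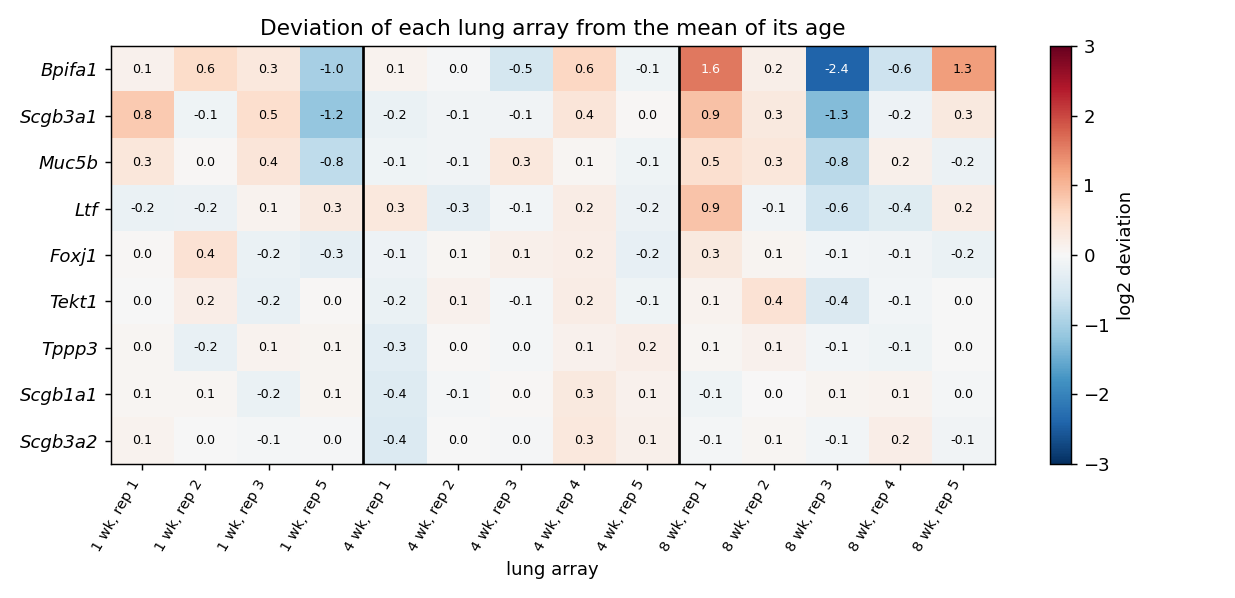
Deviation of each lung array (columns, by age in weeks and replicate) from the mean of its age for the 9 genes (rows), in log2 units by colour and number, with black lines between ages. Lung 8 week replicate 3 and lung 1 week replicate 5 are low in Bpifa1, Scgb3a1 and Muc5b, and within 0.09 of their age mean in Scgb1a1, Scgb3a2 and Tppp3. Lung 8 week replicate 3 is also at -0.61 in Ltf and -0.44 in Tekt1. Lung 1 week replicate 5 is at -0.27 in Foxj1 and 0.27 in Ltf.

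The genes most like each of the 9 in these deviations, out of all tested, were read off by Pearson correlation over 14 arrays. For Bpifa1 they were Bpifb1 (0.95), Reg3g (0.94), Ido2 (0.91), Sult1d1 (0.90) and Sprn (0.88). Reg3g (0.94) and Tff2 (0.91) led for Scgb3a1, and Scgb3a1 itself (0.89), Gpr33 (0.88), Tff2 (0.87) and Gp2 (0.87) for Muc5b. Reg3g is a secreted lectin and Tff2 a trefoil peptide of mucus, and neither was called between ages. For Scgb1a1 they were Lyz2 (0.98), Eef1a1 (0.97), Tpt1 (0.97), App (0.96) and Sftpc (0.96), which are bright transcripts in lung. For Scgb3a2 they were Npc2 (0.96), Slc34a2 (0.95), Foxa2 (0.94), Lyz2 (0.93) and Mgp (0.93). Trim46 (0.92) led for Foxj1, Saal1 (0.90) for Tekt1, Psmb4 (0.91) for Tppp3 and Ptn (0.91) for Ltf.

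In kidney 5 of the 9 genes passed the filter on dim values, and in heart 6. At 4 weeks all 9 were called higher in lung than in kidney, where 35.5% of the 14955 genes tested were, and higher than in heart, where 39.7% were. Nothing is read from that count, since a gene could enter the fit of all groups through lung alone. Scgb1a1, Bpifa1, Muc5b and Tekt1 did not pass the filter in kidney, nor Bpifa1, Muc5b and Tekt1 in heart, and no size is given for them. Among the genes whose 4 week mean in kidney reached 117.9, the lung level minus the kidney level was 7.47 for Scgb3a2 (SE 0.38), 5.61 for Scgb3a1 (SE 0.34), 2.32 for Ltf (SE 0.33) and 2.29 for Foxj1 (SE 0.26). Against heart it was 7.59 for Scgb3a2, 5.83 for Scgb3a1, 2.71 for Tppp3 and 2.65 for Foxj1. Tppp3 in heart read 832 ± 99.1 (SD, n = 4) at 1 week and 987 ± 143 (n = 5) at 4 weeks.

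Of the 5 genes bright enough for a test in kidney, Tppp3 fell and the others were not called, where 42.2% of genes were called from 1 to 4 weeks, 0.610% from 4 to 8 weeks and 47.0% from 1 to 8 weeks. Tppp3 in kidney read 173.1, 219.1, 200.3, 198.8 and 198.5 at 1 week. It read 145.6, 127, 71.9, 45.7 and 109.6 at 4 weeks and 104.6, 116.4, 91.6, 139.1 and 92 at 8 weeks. All later kidneys lay below the 1 week kidneys. The change was -0.96 from 1 to 4 weeks (SE 0.21, limma adjusted p = 0.00162) and -0.79 from 1 to 8 weeks (SE 0.21, limma adjusted p = 0.0060). Foxj1 read 80.7 to 237.9 on the 15 kidney arrays and was not called, at 0.29 (SE 0.30) from 1 to 4 weeks.

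Of the 6 genes tested in heart, 0 were called from 1 to 4 weeks, where limma called 26.0% of genes and gave an unadjusted p under 0.05 to 4824. Scgb1a1 read 6.1, 1144.6, 107.3 and 33.1 at 1 week and 13.9, 8.8, 1656.8, 19.9 and 24.4 at 4 weeks, so that it passed the filter through 1 heart at each age. The same hearts read 1072.5 and 1013.2 in Sftpc, and the other hearts 116.1 to 322.5. The part of lung tissue in these values was not tested.

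The change in lung was set against that in kidney and heart in 1 fit of all groups, and both comparisons share the lung arrays. From 1 to 4 weeks 4 of the 9 genes changed more in lung than in kidney, where 26.3% of genes differed in either direction. The lung change minus the kidney change was 3.76 for Bpifa1 (SE 0.70, limma adjusted p = 9.74e-05), 1.79 for Tppp3 (SE 0.24, limma adjusted p = 4.66e-07), 1.51 for Tekt1 (SE 0.33, limma adjusted p = 0.000673) and 1.03 for Foxj1 (SE 0.38, limma adjusted p = 0.0412). For Tppp3 that holds a rise in lung and a fall in kidney. Bpifa1 and Tekt1 entered through lung alone, with kidney means of at most 55.1, so that the offset weighs on the size and the count of 4 is not support. The Foxj1 difference lost its call when kidney 1 week replicate 2 or 3, kidney 4 week replicate 2 or 3, lung 1 week replicate 1, 3 or 5, or lung 4 week replicate 2, 3 or 4 was left out, at 0.84 to 1.04.

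From 1 to 8 weeks 3 of the 9 differed between lung and kidney, where 30.4% of genes did: Bpifa1 by 2.63, Tekt1 by 1.13 and Tppp3 by 1.63. From 4 to 8 weeks 0 of the 9 differed, where limma called 0.194% of genes and gave an unadjusted p under 0.05 to 1174. Against heart, 1 of the 9 differed from 1 to 4 weeks, where 17.5% of genes did: Bpifa1 by 3.41 (SE 0.72, limma adjusted p = 0.000864). Its heart means were 9.03 and 29.7, under the 117.9 limit, so that the heart change in this difference lies between signals not told from background. With the 2 left-out arrays kept as labelled, 6 differed from heart. Leaving out heart 1 week replicate 1 gave 3, and leaving out lung 1 week replicate 2, kidney 4 week replicate 4 or heart 4 week replicate 4 gave 2. Foxj1 differed from heart by 1.01 (SE 0.39, limma adjusted p = 0.0699), Tppp3 by 0.59 (SE 0.25, limma adjusted p = 0.0944) and Tekt1 by 0.56 (SE 0.34, limma adjusted p = 0.285).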

How the data were processed

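Per the labels, Trizol was used to isolate total RNA, and biotin-labelled cRNA made from it was hybridised to Affymetrix mouse arrays. The deposited values are linear intensity values, from 0 to 69706.7, which the authors scaled so that the mean after trimming 2% at each end was 500 on each array. RMA and Partek 6.6 are named in the submitters' processing notes, the step of each is not given in the sources used here, and there are no detection calls. Of 45101 probe sets 34958 carried 1 symbol, 932 several and 9211 none, by GEO's annotation. Each gene was read from its probe set with the highest mean over 40 arrays. Values were taken as log2(signal + 16), which understates folds of dim genes. A gene was tested if its brightest group averaged at least 117.9, the 40th percentile of the whole table. limma 3.58.1 in R 4.3.3 (package data.table, version 1.17.8) fitted the ages of a tissue together, or all 8 groups for differences between tissues, with Benjamini-Hochberg adjustment over all genes tested. The fit was tested on simulated data. Figures used Python 3.11.15 (numpy 2.4.6, pandas 2.3.3, matplotlib 3.10.9). The number of arrays, 4 or 5 per group, limits the precision.

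The 9 members and the gene lists were chosen with earlier results of these data known. The genes named were the 9 and a choice from 3 pools, not all of which is shown. The pools were up to 4 genes per direction with the largest change among those called in each list, the 5 most alike each of the 9, and the first 3 of each other cell type's list. Cyp2f2, Hydin, Dnah5, Slpi, Muc5ac, Rfx2, Rfx3, Trp73, Reg3g, Tff2, Krt5 and Elane were named after their values were seen. Lists matched 29 of 32 club cell, 21 of 22 goblet, 27 of 29 defence, 22 of 25 regulator and 120 of 153 axoneme entries. Replicate numbers did not pair the lung arrays: deviations of same-numbered arrays correlated at -0.07 to 0.22 (median 0.03, 13 pairs), against a median of -0.02 for other numbers. Same animal numbers in different organs had a median of -0.01 (18 pairs). The main fits between organs had no term for the animal. With animal number as a random block the fitted correlation was 0.014. Promoter sequences come from a RefSeq table of GRCm38.p6. Entries of the 9 genes on chromosome 18, where Scgb3a2 lies, were left out, and 4 of the 9 genes then had a sequence. Ltf, whose sequence is not printed, had a forkhead match at -160 to -154.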

Additional observations from a re-analysis of the deposited data

Results flagged for a closer look

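In 72 groups of 4 or 5 arrays, 8 had an array far from the others of its group, where chance gives about 1 in 20. Of these, 5 were Scgb1a1: kidney 1 week replicate 2 at 52.1 (others 10.2 to 14.5), kidney 4 week replicate 1 at 104 (12.9 to 18.6), heart 1 week replicate 2 at 1144.6 (6.1 to 107.3), heart 4 week replicate 3 at 1656.8 (8.8 to 24.4) and lung 1 week replicate 3 at 26608.1 (31802.2 to 32054.4). The others were Scgb3a1 in heart 4 week replicate 1 at 221.1 (259.9 to 272.6), Tppp3 in lung 1 week replicate 2 at 3097.8 (3772.1 to 3900.3) and Ltf in kidney 4 week replicate 3 at 55.6 (203.6 to 249.6).

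The change in lung differed from that in another organ by limma's test of the difference. From 1 to 4 weeks the difference from kidney was 3.76 for Bpifa1, 1.03 for Foxj1, 1.51 for Tekt1 and 1.79 for Tppp3. From 1 to 8 weeks it was 2.63 for Bpifa1, 1.13 for Tekt1 and 1.63 for Tppp3. From 1 to 4 weeks the difference from heart was 3.41 for Bpifa1. Bpifa1 in kidney and heart and Tekt1 in kidney were under 117.9 at each age, and Tppp3 in kidney at 4 and 8 weeks. The differences of these genes thus involve signals not told from background. On the left-out array labelled heart 1 week replicate 5, Scgb1a1 read 30870.2, against 6.1 to 1144.6 on the other hearts of that age.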

How the results depend on the processing

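The lung calls of Bpifa1, Foxj1, Tekt1 and Tppp3 from 1 to 4 and from 1 to 8 weeks, and of Muc5b from 1 to 4 weeks, kept their direction and side of the threshold under all 24 alternatives (23 for Tekt1, which the filter at the 60th percentile, 271.9, removes). Muc5b from 1 to 8 weeks missed it in 1 fit of all groups (adjusted p = 0.0502). Scgb3a1 from 1 to 4 weeks kept its call in 9 of 24, and with the replicate block was 1.06 (adjusted p = 0.0811). The replicate block also gave 1.00 for the Foxj1 difference from kidney (adjusted p = 0.0528) and changed no other call of the 9 genes in lung. The offset of 1 ended the Bpifa1 difference from kidney from 1 to 8 weeks (2.28, adjusted p = 0.0645).

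The count of all genes called in lung from 4 to 8 weeks moved from 280 to 143 with no filter, 15 as labelled, 163 with the replicate block, 119 in 1 fit of all groups and 115 to 268 with an array left out. The lung minus kidney count from 4 to 8 weeks moved from 29 to 18 with the mean of probe sets and 7 as labelled, and the kidney count of that interval from 84 to 144 in 1 fit of all groups and 53 to 110 with an array left out. The axoneme count that rose by 4 weeks moved from 79 to 52 with the 60th percentile filter. That filter takes genes under 271.9, Tekt1 among them, out of the test, so the 52 are out of fewer genes. The axoneme count by 8 weeks moved from 73 to 47 in 1 fit of all groups. Apart from that removal of genes, the causes were not tested.

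No called member changed sign; these uncalled values did. Offset 1 gave lung minus heart values of -0.29 (Muc5b) and -0.044 (Scgb3a2). Offset 64 gave -0.021 for Scgb3a1 in heart and -0.014 for Muc5b in lung minus kidney from 4 to 8 weeks. Quantile normalization gave Scgb3a2 -0.0028 and -0.067 in lung at 4 and 8 against 1 week and -0.17 in lung minus heart, and Scgb1a1 0.026 in lung from 4 to 8 weeks. As labelled, Ltf was 0.091 in lung from 1 to 8 weeks. In heart Foxj1 was -0.062, Scgb3a1 -0.90, Scgb3a2 -1.40 and Tppp3 -0.23. In lung minus kidney from 1 to 4 weeks Ltf was 0.29, Scgb1a1 0.80 and Scgb3a2 0.52, and from 1 to 8 weeks Scgb1a1 was 0.047, Scgb3a1 0.49 and Scgb3a2 0.71. The replicate block gave -0.041 for Scgb3a2 in lung from 1 to 8 weeks and -0.017 for Scgb3a1 in heart.

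Leaving out 1 array at a time, signs changed within these ranges. In lung from 4 to 8 weeks they were -0.22 to 0.10 for Muc5b, -0.14 to 0.032 for Scgb1a1 and -0.072 to 0.060 for Tppp3, and from 1 to 8 weeks -0.20 to 0.51 for Scgb3a1 and -0.028 to 0.058 for Scgb3a2. In kidney they were -0.056 to 0.56 for Ltf from 1 to 4 weeks and -0.10 to 0.37 from 1 to 8 weeks. From 4 to 8 weeks they were -0.25 to 0.13 for Foxj1, -0.40 to 0.17 for Ltf, -0.019 to 0.25 for Scgb3a1 and -0.033 to 0.31 for Tppp3. In heart they were -1.79 to 0.47 for Scgb1a1, -0.39 to 0.20 for Scgb3a1 and -0.45 to 0.39 for Scgb3a2. In lung minus kidney from 1 to 4 weeks they were -0.41 to 0.20 for Ltf and -0.41 to 0.23 for Scgb1a1, and from 1 to 8 weeks -0.67 to 0.046 for Scgb3a1. From 4 to 8 weeks they were -0.36 to 0.019 for Foxj1, -0.21 to 0.28 for Muc5b, -0.032 to 0.36 for Scgb3a2 and -0.31 to 0.040 for Tppp3. In lung minus heart they were -0.21 to 0.21 for Muc5b, -0.32 to 1.95 for Scgb1a1 and -0.24 to 0.60 for Scgb3a2.

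With no detection calls, signals near or under 117.9 cannot be told from background, which limits Tekt1 at 1 week in lung and most of the 9 in kidney and heart.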
